A study of Junonia coenia with 24 samples.

Results

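Chromatin accessibility in the developing hindwing of the buckeye butterfly, Junonia coenia, was compared between the prepupa and the pupa labelled 6 d. The comparison used 6 of the 24 libraries of the study, 3 labelled prepupa and 3 labelled 6 d, chosen by their labels. Its features were the 258640 hindwing intervals that passed a low-count filter, out of 488675 intervals in the hindwing table, and they held 90.4% of the hindwing counts. The study applied ATAC-seq to whole wing tissue, with forewings and hindwings sampled at 4 labelled stages (5th instar, prepupa, 72 h after pupation and 6 d after pupation) and 3 libraries in each of the 8 groups. Insects were reared at about 27 °C, and no genotype, treatment or sex distinguishes the groups in the labels. The group labelled 6 d has titles that say day 7. The prepupa and the 6 d pupa are not successive labelled stages, since the 72 h pupa lies between them.

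The wings of a butterfly grow inside the larva as imaginal discs, folded sheets of epithelium. In the prepupa, the larva that has stopped feeding and prepares to moult, the discs are about to evert. In the pupa the wing becomes a thin bilayer in which scale cells are specified, grow out and later take up pigment, and in butterflies, as in other insects, the Hox gene Ultrabithorax gives the hindwing its identity. ATAC-seq uses the transposase Tn5, which inserts adapters where DNA is not wrapped tightly in nucleosomes. A high read count in an interval therefore marks open chromatin, as is found at promoters and at enhancers bound by transcription factors. The contigs of the deposited table are given by their own names, no annotation or genome sequence was used here, and intervals are therefore named by contig, start and end and not by gene. For the same reason the tissue label was not checked against marker genes.

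Total counts in intervals were 14795457, 11955504 and 13079163 for prepupa libraries 1, 2 and 3, and 8207135, 9017148 and 7040817 for the 6 d libraries. The 3 libraries labelled 6 d resembled each other closely, with Spearman correlations of 0.791 to 0.828 across intervals. The 3 labelled prepupa did not resemble each other equally. Libraries 1 and 3 correlated at 0.844, whereas library 2 correlated with them at 0.753 and 0.708. On the first principal component of the 12 hindwing libraries, which took 39.7% of the variance, prepupa libraries 1, 2 and 3 stood at 108, -14.0 and 151. The 6 d libraries stood at 263 to 274, the 5th instar libraries at -101 to -35.7 and the 72 h libraries at -301 to -249. Prepupa libraries 1 and 3 thus lay on the side of the 6 d libraries, and library 2 lay between the 5th instar libraries and library 1.

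The same split was visible against the hindwing group means. Prepupa library 2 correlated at 0.758 with the 5th instar mean, 0.658 with the 72 h mean and 0.599 with the 6 d mean. The corresponding values were 0.735, 0.630 and 0.723 for library 1 and 0.683, 0.584 and 0.753 for library 3. Library 3 was closest to the 6 d mean of these 3 means, and libraries 1 and 2 were closest to the 5th instar mean. Levels were also set beside the forewing, over 127816 intervals matched between the tables and with the mean of each wing removed. Each 6 d hindwing library correlated most with the forewing prepupa mean, at 0.780 to 0.822, and negatively with the forewing 6 d mean, at -0.481 to -0.451. Hindwing prepupa library 2 correlated most with the forewing 72 h mean (0.583), with -0.256 for the forewing prepupa mean. Library 3 correlated most with the forewing prepupa mean (0.477), and library 1 did so about equally with the 72 h and prepupa means of the forewing (0.333 and 0.330). By this measure the 3 libraries of 6 d and prepupa library 2 were closest to a forewing group of another label than their own. Prepupa library 1 was so too, but only by the small margin given. The results rest on the labels as deposited, with the levels of each prepupa library.

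Hindwing chromatin differed between the stages mainly by intervals that were less open at 6 d. Counts were fitted in edgeR, its quasi-likelihood F test was applied to each interval with Benjamini-Hochberg adjustment over all tested intervals, and an adjusted p under 0.05 made a call. In all, 21847 intervals were called, which is 8.45% of those tested. Of these, 17038 (6.59% of those tested) fell from prepupa to 6 d and 4809 (1.86%) rose. The median log2 change was -2.30 among falling intervals, or -2.27 with intervals without 6 d reads set at their bound, 1.40 among rising intervals and -0.07 over all tested intervals. Changes of at least 8-fold in these fitted values were reached by 5798 falling and 241 rising intervals. Because whole wings were assayed, fewer cells of a type and less open chromatin per cell cannot be told apart.

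**Figure D1:**
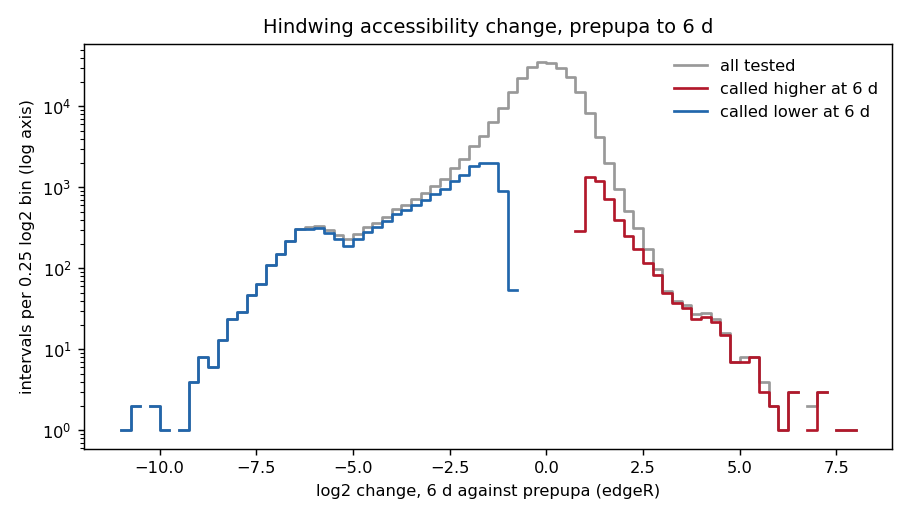
Number of hindwing intervals (log axis, per bin of 0.25) against the log2 change in accessibility from prepupa to 6 d, for all 258640 tested intervals, the 4809 called higher at 6 d and the 17038 called lower. The called falls reach much further from 0 than the called rises, with 5798 against 241 beyond 8-fold.

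The balance of rises and falls depended on the scaling and the weighting of libraries. With library totals alone in place of TMM factors the median of all intervals moved from -0.07 to 0.05, and 7079 intervals rose and 14818 fell, so that rises made up 32.3% of calls in place of 22%. With limma voom and a weight for each sample, 18094 rose and 18103 fell, and offsets fitted by abundance (loess) gave 7537 and 17272. Of single libraries, leaving out prepupa library 2 reduced the falls to 9783, and leaving out 6 d library 1 or 2 reduced them to 9434 or 9704. The rises were reduced to 2147 without prepupa library 1 and to 1570, 1734 and 2383 without 6 d libraries 1, 2 and 3. In each of these settings at least as many intervals fell as rose, and no interval called with all libraries turned to a call in the other direction.

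**Figure D2:**
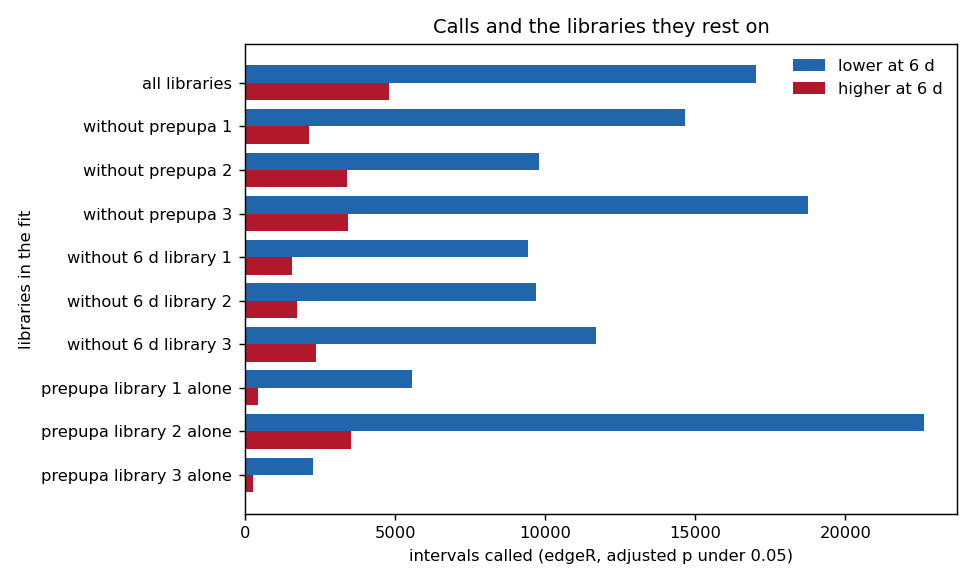
Number of hindwing intervals called higher or lower at 6 d with all libraries, with each library left out in turn, and with each prepupa library alone against the 6 d libraries. Falls exceed rises in every bar pair, and the number of falls ranges from 2271 with prepupa library 3 alone to 22606 with library 2 alone.

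Counts of intervals whose libraries did not overlap gave a wider set. At 43332 intervals (16.8%) all 3 prepupa libraries lay above all 3 of 6 d, and at 35639 (13.8%) they lay below. Of the called intervals 386 falling and 40 rising ones had overlapping groups. At 41522 intervals (16.1%) the 95% interval of the log2 change lay within ±1, so that a change beyond 2-fold in either direction was outside it. At 195271 intervals (75.5%) neither a call was made nor the change bounded in this way, and the 95% interval reached a median of 0.919 to either side over all tested intervals.

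The largest falls were intervals that were open in every prepupa library and without a read at 6 d. The interval at 1502220 to 1502529 on contig 000110F held 13.4, 41.7 and 10.7 CPM in prepupa libraries 1, 2 and 3, where CPM (the unit of all levels here) is the count scaled to a common library total after TMM correction. All 3 of the 6 d libraries held 0, so that the groups did not overlap. Its prepupa mean of 21.9 ± 17.2 CPM (SD, n = 3) was at least 217-fold above the level of 3 reads over the 6 d group, with an adjusted p of 1.96e-05. On contig 000154F, positions 998746 to 999168, prepupa levels were 7.5, 39.7 and 9.68 CPM against 0 in each 6 d library, at least 187-fold lower (adjusted p = 0.000371). On 000050F, positions 1567678 to 1568216, they were 10.6, 33.8 and 11.9 CPM against 0, at least 185-fold lower (adjusted p = 1.67e-05). Prepupa library 2 was the highest in each of these intervals. The folds rest on the prepupa mean, and libraries 1 and 3 lay below it in each, so they are no lower bound for single libraries.

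A further interval of this kind was more even among the prepupa libraries. At 194855 to 195257 on 000180F, levels were 15.3, 21.0 and 6.26 CPM in the prepupa against 0 in each 6 d library. The mean level was at least 140-fold lower at 6 d, with an adjusted p of 0.00171. Other stages showed that this interval also varied within labelled groups, with 21.9, 31.5 and 0 CPM in the 5th instar libraries and 36.4, 63.0 and 17.8 CPM in the 72 h libraries. Its call was not made by voom with sample weights (adjusted p = 0.182) or with prepupa library 3 alone (adjusted p = 0.0594).

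Intervals without 6 d reads formed a set of their own. None of the 3 libraries of 6 d held a read at 2272 tested intervals, of which 1958 were called as falling, 11.5% of all falls. Only 19 tested intervals held no read in the prepupa, and 9 of them were called as rising. These were narrow, weakly covered intervals, with a median width of 163 bp and a median of 40 reads over the prepupa group. Their median levels were 0.889, 1.36 and 0.569 CPM in prepupa libraries 1, 2 and 3. At the other hindwing stages they were also open, at a median of 1.41 CPM in the 5th instar and 1.59 CPM at 72 h. The prepupa libraries were the deeper ones, and intervals that passed the low-count filter through them are among these counts. After all 12 hindwing libraries were thinned to 6977525 counts, a step chosen after seeing the data, 2465 of the same intervals held no read at 6 d and 54 held none in the prepupa. The part of the filter in this difference was not tested. Without prepupa library 2 in the fit, 1643 falling intervals had no 6 d reads.

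Among the more deeply covered intervals, with a mean of at least 20 CPM over the 6 libraries, the falls with the lowest p were measured more precisely. On 000134F, positions 562392 to 563127, the prepupa libraries held 32.9, 94.8 and 36.6 CPM and the 6 d libraries 2.0, 1.65 and 2.87 CPM. The log2 change was -4.66 with a standard error of 0.47 (adjusted p = 1.96e-05), and this interval was open at the 5th instar as well, at a mean of 83.5 CPM. On 000140F, positions 561695 to 562404, levels were 28.5, 96.7 and 37.7 CPM against 2.20, 2.56 and 0.803 CPM, a log2 change of -4.84 (standard error 0.52, adjusted p = 2.82e-05). In both intervals prepupa library 2 was well above libraries 1 and 3, which in turn were more than 10 times the 6 d mean.

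One interval was high under the prepupa label and low at the other 3 stages. At 3251397 to 3253740 on 000006F the prepupa libraries held 143, 427 and 153 CPM. The 6 d libraries held 14.5, 13.5 and 13.2 CPM, the 5th instar libraries 13.1, 14.0 and 18.5 CPM, and the 72 h libraries 7.97, 11.5 and 11.1 CPM. All 3 prepupa libraries lay above the other 9 hindwing libraries. From prepupa to 6 d the log2 change was -4.13 with a standard error of 0.43 (adjusted p = 2.13e-05).

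The largest rises had almost no reads in the prepupa. At 8724 to 9440 on 000730F the prepupa libraries held 0.222, 0 and 0.127 CPM and the 6 d libraries 8.60, 6.96 and 5.05 CPM, a mean of 6.87 ± 1.78 CPM (SD, n = 3). The log2 change was 5.58 with a standard error of 0.57 (adjusted p = 2.13e-05). At 59096 to 59255 on 000180F, levels rose from 0.0556, 0.0905 and 0.316 CPM to 5.70, 4.76 and 11 CPM, a log2 change of 5.40 (standard error 0.58, adjusted p = 2.94e-05). This interval was closed at the 5th instar and at 72 h too, at means of 0.0459 and 0.0494 CPM, so that among hindwing libraries its reads came almost wholly from the 6 d group.

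A second pair of large rises was less even across libraries. At 761141 to 761543 on 000220F the prepupa libraries held 0.222, 0 and 0.127 CPM and the 6 d libraries 6.60, 5.04 and 5.51 CPM, a log2 change of 5.32 (standard error 1.03, adjusted p = 0.00285). One of the 72 h libraries held 7.10 CPM there and the other 2 held 0. At 790716 to 791052 on 000056F, levels were 0, 0.362 and 0.127 CPM against 6.10, 5.13 and 7.0 CPM, a log2 change of 5.34 (standard error 1.26, adjusted p = 0.0120). There 1 of the 5th instar libraries held 13.4 CPM and the other 2 held 0. With prepupa library 1 or 3 alone the call on 000220F was lost (adjusted p = 0.138 and 0.151). The call on 000056F was lost with prepupa library 1, 2 or 3 alone (0.136, 0.204 and 0.259), without prepupa library 1 (adjusted p = 0.0564) and with the Wald test of DESeq2 (adjusted p = 0.25).

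Rises in more deeply covered intervals were smaller. At 4802339 to 4804480 on 000001F the prepupa libraries held 16.3, 17.0 and 15.5 CPM and the 6 d libraries 47.6, 50.8 and 68.4 CPM. The log2 change was 1.77 with a standard error of 0.30 (adjusted p = 0.000944). At 2705281 to 2707165 on 000025F, levels were 11.6, 16.7 and 10.3 CPM against 41.1, 44.0 and 37.3 CPM, a log2 change of 1.67 (standard error 0.30, adjusted p = 0.00169). These 2 intervals span about 2 kb each, and the prepupa groups lay well below the 6 d groups with no overlap. At 179740 to 181698 on 000090F, levels were 17.8, 14.8 and 24.7 CPM against 59.6, 64.5 and 52.3 CPM, a log2 change of 1.62 (standard error 0.30, adjusted p = 0.00180). That call was lost with prepupa library 3 alone (log2 change 1.25, adjusted p = 0.0976).

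**Figure D3:**
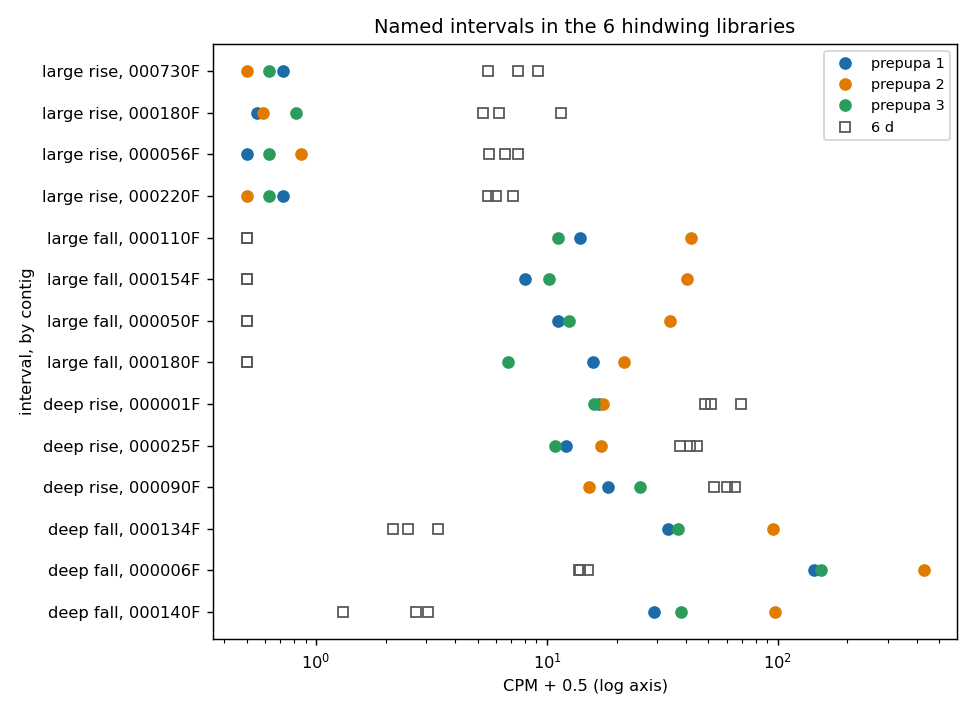
Accessibility (CPM + 0.5, log axis) of the 14 intervals named for the largest or the most precisely measured changes, 1 row per interval, with 1 point per prepupa library and open squares for the 6 d libraries. Prepupa library 2 lies furthest from the 6 d squares in all 7 falling rows, while the prepupa points of the deep rises lie close together.

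Some of the most open intervals showed little change. At 974294 to 976561 on 000179F the prepupa libraries held 127, 148 and 133 CPM and the 6 d libraries 150, 146 and 163 CPM, a log2 change of 0.17 with a 95% interval of -0.47 to 0.81. At 19822 to 25954 on 000047F the values were 117, 220 and 121 CPM against 145, 157 and 138 CPM (log2 change -0.06, 95% interval -0.80 to 0.69). At 396158 to 399748 on 000197F they were 82.3, 216 and 101 CPM against 124, 136 and 122 CPM (log2 change -0.06, 95% interval -0.88 to 0.76). Without prepupa library 2 the changes on 000047F and 000197F were 0.30 (adjusted p = 0.512) and 0.48 (adjusted p = 0.322). On these 2 contigs library 2 lay above the 6 d libraries and the other 2 prepupa libraries lay below them, so the small mean change joined opposite differences. With offsets fitted by abundance both were called as rising, at log2 changes of 0.85 (adjusted p = 0.00230) and 0.94 (adjusted p = 0.000109).

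Each prepupa library was then set against the mean of the 6 d libraries as a log2 ratio of CPM with 0.5 CPM added. Over all tested intervals the median ratios of libraries 1, 2 and 3 were 0.06, 0.02 and 0.08. At falling intervals they were 1.29, 1.96 and 1.08, and at rising intervals -1.14, -1.24 and -1.16. The calls rest on these same libraries, so the ratios describe how the 3 share a called change and are no separate test of it. At these called intervals the libraries shared the rises nearly evenly and the falls unevenly. A rise was less likely to be called where library 2 was high, and rises called without it are described below. At falling intervals library 2 was the highest of the 3 in 80.3% of cases, library 1 in 13.4% and library 3 in 6.26%, and library 3 was the lowest in 64.0%. At rising intervals library 2 was the lowest in 47.9%, library 1 in 24.4% and library 3 in 27.7%.

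**Figure D4:**
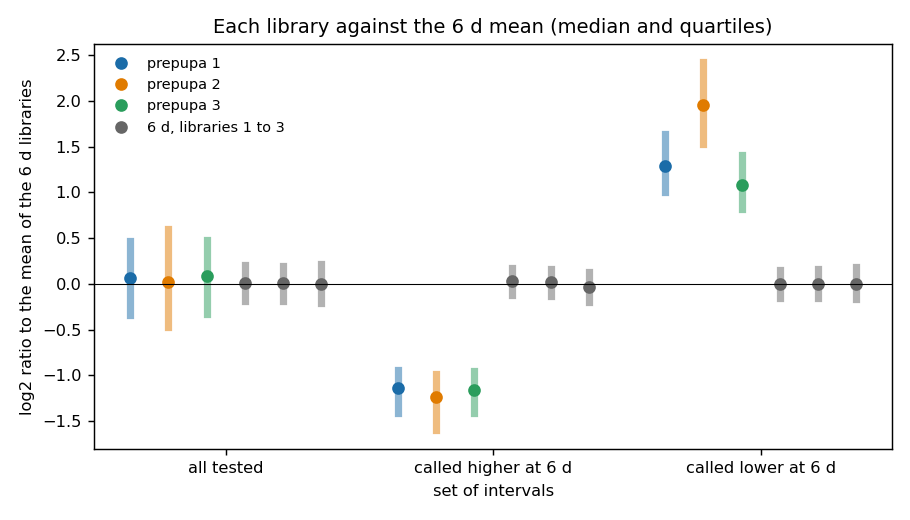
Log2 ratio of each library to the mean of the 6 d libraries (median as a point, quartiles as a bar) over all tested intervals, those called higher at 6 d and those called lower. The prepupa libraries lie together at rising intervals (-1.24 to -1.14) and apart at falling intervals, where library 2 stands at 1.96 and the others at 1.29 and 1.08.

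The levels of libraries 1 and 3 were then placed on a scale with the 6 d mean at 0% and library 2 at 100%. The scale was used at the 6248 falling intervals where library 2 exceeded the 6 d mean by at least 5 CPM, a choice that favours intervals with library 2 high. Library 1 stood there at a median of 29.1% (quartiles 22.6% and 37.1%) and library 3 at 24.9% (17.6% and 33.9%). At the 1056 rising intervals with such a gap the medians were 93.5% and 90.2%. There the choice favours intervals with library 2 low. The scale is linear in CPM, so low prepupa levels at rises lie near 100% by construction. The medians at rises and at falls are therefore not compared. The spread among prepupa libraries was larger at falling than at rising intervals. The median SD of log2 CPM, with 0.5 CPM added, was 0.541 in the prepupa and 0.249 at 6 d at falling intervals. At rising intervals it was 0.265 and 0.231. Over all tested intervals it was 0.333 in the prepupa, 0.304 at 6 d, 0.363 in the 5th instar and 0.392 at 72 h. Falling intervals had a median of only 0.540 CPM at 6 d, and the 1958 without 6 d reads hold no spread there. The added 0.5 CPM also narrows an SD at low levels. How far this lowers the 6 d value was not tested.

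Prepupa library 2 was also examined where it had no part in the fit, although it had a part in the low-count filter. The 6 d libraries it was set against are the same ones that made the calls. The shares below are therefore no separate test, and those over all tested intervals are not a matched reference. The fit without library 2 called 9783 falling and 3404 rising intervals. At 9625 of these falling intervals (98.4%) the left-out library lay above all 3 of 6 d, with a median log2 ratio of 2.09, and it lay above both other prepupa libraries at 71.9%. Over all tested intervals it lay above all 3 of 6 d at 34.9%. At 2878 of the rising intervals (84.5%) it lay below all 3 of 6 d, against 33.5% over all tested intervals, and at 154 (4.52%) it lay above all 3. Its median log2 ratio at these rising intervals was -0.90. Library 2 lay above both other prepupa libraries at 63.5% of them and below both at 21.0%. Of the intervals called with all libraries, 9549 falling and 2361 rising ones were also called without library 2.

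Tested alone against the 6 d group, with the spread taken from the groups that have replicates, the 3 prepupa libraries gave different numbers of calls. Library 1 gave 5570 falls and 428 rises, library 2 gave 22606 and 3539, and library 3 gave 2271 and 271. These fits assume that a lone library varies like those of the other groups.

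Single intervals show how far the libraries could part. At 158677 to 159467 on 000237F library 2 held 108 CPM and libraries 1 and 3 held 12.4 and 12.8 CPM, against 8.60, 9.16 and 13.1 CPM at 6 d. The log2 change was -2.11 and not called (adjusted p = 0.0656), but it was called without library 1 (-2.55, adjusted p = 0.0279) or library 3 (-2.55, adjusted p = 0.0214), and it was -0.30 without library 2 (adjusted p = 0.795). Such unevenness was seen there in other groups also, with 20.4, 93.2 and 91.1 CPM in the 5th instar libraries and 9.96, 41.2 and 36.2 CPM at 72 h. At 21182 to 22352 on 000926F library 2 was low, at 1.90 CPM, against 28.8 and 42.4 CPM in libraries 1 and 3 and 136, 113 and 166 CPM at 6 d. That interval rose by 2.5 on the log2 scale (standard error 0.68, adjusted p = 0.0262). The call was lost without prepupa library 1 (adjusted p = 0.0606), without 6 d library 1, 2 or 3 (0.0666, 0.0532 and 0.0723), in the fit of the 6 libraries alone (0.0590) and with DESeq2 (0.0807).

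Other intervals were set apart by library 1 or library 3. At 742420 to 742804 on 000127F library 1 held 0.278 CPM, against 33.6 and 6.45 CPM in libraries 2 and 3 and 2.10, 2.29 and 2.29 CPM at 6 d. Library 1 lay below the 6 d group there and the other 2 lay above it, and the direction depended on the library. With all libraries the log2 change was -2.57 (adjusted p = 0.0525), without library 1 it was -3.15 (adjusted p = 0.00101), without library 2 it was -0.57 (adjusted p = 0.664), without library 3 it was -2.90 (adjusted p = 0.0341), and with library 1 alone it was 2.94 (adjusted p = 0.0191). At 944619 to 945331 on 000018F library 1 was the highest, at 6.95 CPM against 3.17 and 3.42 CPM, within the 6 d range of 4.36 to 7.20 CPM (adjusted p = 0.499). At 724884 to 725459 on 000220F library 3 held 7.65 CPM and libraries 1 and 2 held 1.83 and 0 CPM, against 9.5, 7.88 and 3.56 CPM at 6 d (adjusted p = 0.419). At 132674 to 133445 on 000369F library 3 held 0.696 CPM and libraries 1 and 2 held 10.002 and 21.0 CPM, against 1.5, 1.37 and 1.38 CPM (adjusted p = 0.0703). Without library 3 the last 2 intervals were called, at adjusted p of 0.0474 on 000220F and 0.0127 on 000369F.

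The other hindwing stages placed the called changes in development. Falling intervals had median levels of 2.69 CPM in the 5th instar, 2.69 CPM in the prepupa, 2.74 CPM at 72 h and 0.540 CPM at 6 d. Rising intervals had 1.88, 1.72, 2.04 and 4.64 CPM in the same order. The medians of both sets at the other 3 stages were close to each other, while those of all tested intervals were 1.60 to 1.71 CPM at the 4 stages. The 6 d mean was the lowest of the 4 at 91.2% of falling intervals and the highest at 80.2% of rising ones. It was the lowest at 30.9% and the highest at 29.6% of all tested intervals, although the calls themselves fix the order of the prepupa and 6 d means. For rises this depended on prepupa library 2. The 3404 rises called without it had medians of 3.12 CPM in the 5th instar, 2.41 CPM in prepupa libraries 1 and 3, 4.60 CPM at 72 h and 6.54 CPM at 6 d, and the 6 d mean was the highest at 63.9% of them. The 9783 falls called without it had 2.63, 2.12, 2.75 and 0.326 CPM, with the 6 d mean the lowest at 93.8%.

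The 5th instar and 72 h libraries entered no side of the contrast. The 5th instar mean was nearer to the prepupa than to the 6 d mean at 86.4% of falling and 84.8% of rising intervals, against 65.1% of all tested intervals. For the 72 h mean these shares were 78.6%, 69.2% and 61.9%. At falling intervals the 72 h level lay above both the prepupa and the 6 d mean in 54.4%, between them in 38.1% and below both in 7.49%. At rising intervals it lay below both in 44.0%, between them in 37.6% and above both in 18.4%. Over all tested intervals the 72 h mean lay between the other 2 means at 19.2%.

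**Figure D5:**
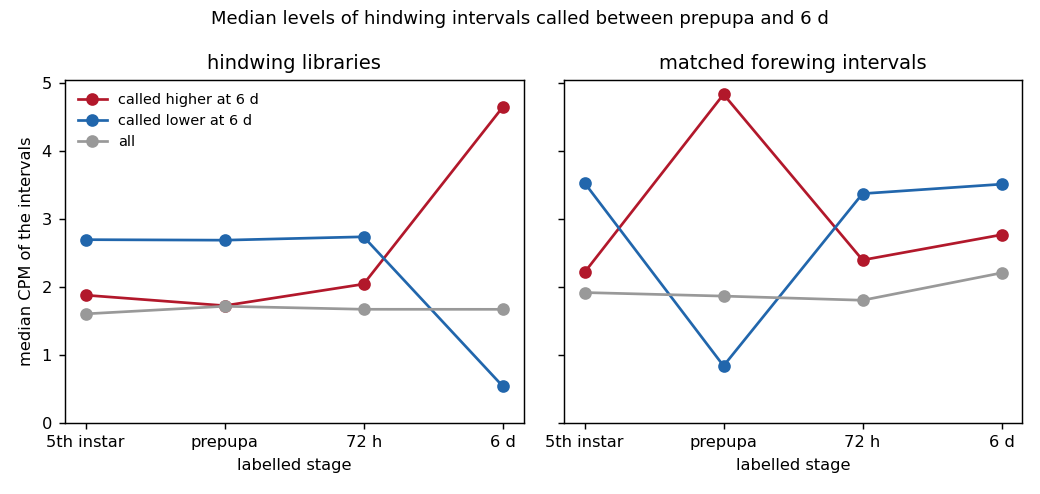
Median CPM at the 4 labelled stages for intervals called higher at 6 d, intervals called lower at 6 d and all intervals, in the hindwing (left) and in matched forewing intervals (right). Hindwing falls drop to 0.540 CPM at 6 d, whereas their forewing matches are low at the forewing prepupa (0.837 CPM) and near 3.5 CPM at the other stages.

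At the scale of 100 kb the 2 directions were nearer in number. Counts of all intervals with their midpoint in a window were summed, including intervals that failed the low-count filter. Windows with at least 5 tested intervals were then tested in the same way. Of 4900 windows 1072 (21.9%) were called, 613 (12.5%) falling and 459 (9.37%) rising, with median log2 changes of -0.60 and 0.46. The larger direction was not stable, since the fit of the 6 libraries alone called 455 falling and 485 rising windows and DESeq2 size factors gave 523 and 521. All 3 prepupa libraries lay above all 3 of 6 d at 22.9% of windows and below them at 21.6%. A change of at least 2-fold was reached by 150 falling and 20 rising windows. Rising windows held 12.2% of the tested intervals, 33.4% of all rising intervals and 3.89% of all falling ones. Falling windows held 11.9% of the tested intervals, 32.3% of the falling intervals and 68 rising intervals. Windows sum the counts of these same intervals, so such shares are no separate test. Changes were smaller at this scale, and the prepupa libraries had median log2 ratios of 0.59, 0.72 and 0.52 at falling windows. At rising windows the ratios were -0.48, -0.45 and -0.43. Library 2 still stood apart, as the highest of the prepupa libraries at 46.6% of all windows and the lowest at 43.4%. Over all tested intervals these shares were 39.3% and 39.4%. Rising windows numbered 275 without prepupa library 1 and 266 and 240 without 6 d libraries 1 and 2, and falling windows numbered 342, 354 and 386 without 6 d libraries 1, 2 and 3.

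The falling window at 300001 to 400000 on 000414F was even across libraries, at 8.25, 9.05 and 6.78 CPM in the prepupa and 0.353, 0.436 and 0.551 CPM at 6 d. Only 5 tested intervals lay in this window, the minimum for a test, and 3 of them fell. Its log2 change was -4.14 (standard error 0.41, adjusted p = 0.000150), and it held 14.0 ± 3.95 CPM in the 5th instar and 16.8 ± 1.25 CPM at 72 h (SD, n = 3). At 100001 to 200000 on 000007F, levels were 18.3, 24.4 and 4.92 CPM against 0.589, 1.09 and 1.65 CPM, a log2 change of -3.83 (standard error 0.68, adjusted p = 0.00306), a call lost with prepupa library 3 alone (0.0837). At 200001 to 300000 on 000407F they were 10.6, 22.2 and 11.7 CPM against 0.825, 0.436 and 0.965 CPM, a log2 change of -4.31 (standard error 1.29, adjusted p = 0.0338). The last call is the least firm, since it was lost without prepupa library 1 (adjusted p = 0.0578) or 2 (0.0573), without 6 d library 1 (0.106), 2 (0.126) or 3 (0.0876), and with the replicate number as a block (0.0594). The windows on 000007F and 000407F held 6 and 5 tested intervals, with 4 falling in each. These large changes thus rest on windows with few tested intervals.

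Among rising windows, 000671F from 1 to 100000 held 8.06, 5.65 and 9.21 CPM in the prepupa and 42.1, 35.2 and 37.5 CPM at 6 d. The log2 change was 2.32 (standard error 0.45, adjusted p = 0.00469), and 9 of its 12 tested intervals rose. The call was lost with prepupa library 1 or 3 alone (adjusted p = 0.0771 and 0.111). At 1300001 to 1400000 on 000123F the prepupa libraries held 6.13, 1.16 and 11.7 CPM and the 6 d libraries 39.9, 46.3 and 42.6 CPM, a log2 change of 2.76 (standard error 0.79, adjusted p = 0.0278). This window was closed at the other hindwing stages, with means of 0.134 CPM in the 5th instar and 0.0854 CPM at 72 h, and 6 of its 8 tested intervals rose. At 200001 to 300000 on 000421F, levels were 5.19, 0.538 and 12.6 CPM against 42.9, 47.7 and 42.0 CPM, a log2 change of 2.85 (standard error 0.87, adjusted p = 0.0360). On 000123F and 000421F library 2 was the lowest and library 3 the highest of the prepupa libraries. Both calls were lost without prepupa library 1 (adjusted p = 0.0908 and 0.113), without 6 d library 1 (0.0716 and 0.0832), without 6 d library 2 (0.0854 and 0.0937) and without 6 d library 3 (0.0669 and 0.0718), and the call on 000421F was also lost in the fit of the 6 libraries alone (0.0504).

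Called intervals lay near others of the same direction. For neighbouring called intervals less than 1 kb apart the directions were the same in 94.8% (3461 of 3651), and the share was 86.5% at 1 to 5 kb, 79.9% at 5 to 20 kb and 73.3% beyond 20 kb. The overall shares of rises and falls would give 65.7% if directions were independent. Consecutive tested intervals called in 1 direction formed 12995 falling and 4178 rising runs, lone intervals included. Of these, 821 falling and 93 rising runs held at least 3 intervals, a description chosen after the values were seen. Neighbouring intervals are not independent, and these shares are given without a test.

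The longest run joined 17 falling intervals over 24.6 kb, at 315159 to 339771 on 000248F. Their summed level was 75.5, 136 and 73.8 CPM in the prepupa and 11.3, 14.9 and 13.8 CPM at 6 d, with 32.3 to 40.5 CPM in the 5th instar and 44.6 to 48.7 CPM at 72 h. It was thus highest in the prepupa and lowest at 6 d. A run of 12 falling intervals at 299043 to 313580 lay just before it on the same contig. On 000219F, 13 falling intervals at 536795 to 560733 summed to 28.0, 52.5 and 20.7 CPM in the prepupa and 5.00, 4.03 and 4.25 CPM at 6 d. The longest rising runs had 6 intervals each. The one at 1317355 to 1375743 on 000123F, inside the window described above, summed to 2.33, 0.543 and 4.49 CPM in the prepupa and 15.7, 17.7 and 19.2 CPM at 6 d, and held 0 in each 5th instar library.

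Contigs differed in the share of intervals that fell. Over the 249 contigs with at least 200 tested intervals the median share was 5.48% falling (quartiles 3.77% and 7.94%) and 1.55% rising (0.687% and 2.22%). On 000241F 96 of 223 intervals fell (43.0%) and none rose. On 000125F 293 of 876 (33.4%) and on 000140F 184 of 724 (25.4%) fell. Median log2 changes of all tested intervals on these 3 contigs were -1.26, -1.07 and -0.69, so most of their tested intervals, called or not, had a lower fitted level at 6 d. The highest shares of rises were 36 of 536 on 000126F (6.72%), 15 of 244 on 000145F (6.15%) and 34 of 556 on 000215F (6.12%).

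Rising intervals were wider than falling ones, with median widths of 439 bp and 293 bp against 251 bp for all tested intervals. The share that rose grew from 0.0674% below 100 bp to 6.45% at 1000 bp or more, and the share that fell from 4.11% to 7.61%. Depth and precision grew with width, from a median level of 0.626 CPM below 100 bp to 15.1 CPM at 1000 bp or more. The 95% interval of the log2 change reached a median of 1.53 and 0.636 to either side in these 2 bins. Width and the power to make a call were not separated. By mean level over the 6 libraries, the share that fell was 3.41% at 1 to 2 CPM, 11% at 5 to 10 CPM and 18.3% at 10 CPM or more, and the share that rose was 1.06%, 5.15% and 3.85%. Below 0.5 CPM 31.7% fell and 0.0617% rose, but an interval this low over the 6 libraries could pass the low-count filter only through libraries where it was higher, and the median log2 change of all tested intervals there was -2.26, so nothing is read from these shares. Precision differed along this axis, the 95% interval reaching a median of 1.93 to either side of the log2 change below 0.5 CPM and 0.668 at 5 to 10 CPM.

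Under the same 2 labels the forewing rose more often than it fell, and at intervals called in the hindwing its calls were mostly in the opposite direction. Of 253438 tested forewing intervals 104434 (41.2%) were called, 61496 (24.3%) rising and 42938 (16.9%) falling. At the 113371 matched intervals tested in both wings the forewing rose at 31.6% and fell at 15%. Of the 8134 hindwing falls among them, 6362 (78.2%) rose in the forewing, 148 (1.82%) fell and 1624 were not called. Of 2322 hindwing rises, 1274 (54.9%) fell in the forewing, 372 (16%) rose and 676 were not called. Median forewing log2 changes were 2.46 at hindwing falls, -1.06 at hindwing rises and 0.25 at all these matched intervals.

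This difference was tested in a fit of all 24 libraries over 127816 matched intervals. The change from prepupa to 6 d differed between the wings at 56420 intervals (44.1%), being more positive in the hindwing at 25529 (20%) and more negative at 30891 (24.2%). With library totals in place of TMM factors these counts were 34096 and 24500, so that the larger of the 2 directions turned. Among the matched hindwing falls 7579 of 8262 had a more negative change in the hindwing, and among the matched rises 1919 of 2350 had a more positive one. These members were called on hindwing values that also enter the fit. Without prepupa library 2, hindwing falls still rose in the forewing at 83.1% of 4628 intervals, while hindwing rises fell there at 40.6% of 1853 and rose at 23.9%.

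By stage, the forewing matches of hindwing falls had medians of 3.53 CPM in the 5th instar, 0.837 CPM in the prepupa, 3.37 CPM at 72 h and 3.51 CPM at 6 d. The forewing matches of hindwing rises had 2.21, 4.83, 2.39 and 2.77 CPM. At these calls hindwing 6 d levels and forewing prepupa levels departed from the other stages in the same direction. Of the 849 matched hindwing falls without 6 d reads, 215 (25.3%) also had no read in the 3 forewing prepupa libraries, 1 had none in the forewing 5th instar, and none lacked reads in the forewing at 72 h or 6 d. Whether a stage label accounts for this was not tested.

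Single intervals show the same pattern. The fall on 000134F at 562392 met a forewing rise from 3.18 ± 0.241 to 26.9 ± 7.49 CPM (SD, n = 3), a log2 change of 3.08 (adjusted p = 3.68e-08). The rise on 000090F at 179740 met a forewing fall from 58.1 ± 13.8 to 13.8 ± 2.69 CPM, a log2 change of -2.07 (adjusted p = 9.41e-07). On 000050F at 1567678, where the hindwing held no 6 d reads, the forewing held 0.156, 0 and 0 CPM in the prepupa and 59.2, 55.8 and 58.5 CPM at 6 d. Likewise, on 000926F at 21182 the forewing held 132, 112 and 148 CPM in the prepupa and 5.03, 5.33 and 0.129 CPM at 6 d, where the hindwing rose.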

How the data were processed

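ATAC-seq read counts per peak interval were deposited by the authors without normalization, with a separate table for each wing. The submitters' processing notes name Bowtie2 and deepTools. For the build, peak caller, read filters, duplicates and shift of read ends, nothing is stated in the sources used here. Interval edges decide which reads a count holds, and duplicates left in would overstate precision. Starts were converted to count from 1.

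Libraries were grouped by labelled tissue and stage. Separate animals are not stated for replicates, so the spread behind each p-value may be technical. No replicate pair agreed within sampling noise (chi-square per interval 1.99 to 6.75 in the groups compared). Totals of 7040817 to 14795457 counts limit precision at weakly covered intervals.

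Intervals kept by filterByExpr (minimum count 10, minimum total 15) were tested with edgeR 4.0.16 (R 4.3.3, with data.table in version 1.17.8 and limma 3.58.1), TMM factors and 1 estimate of spread from all 12 hindwing libraries. Fold changes are 6 d against prepupa, with standard errors from the F statistic. A group without reads was set to 3 reads in all for a lower bound on the fold of group means, which covers counting error only. Matched intervals of the wings are best pairs with at least 80% reciprocal overlap. Named intervals are the 4 rises and 4 falls of largest change (at least 5 CPM in the higher group, no overlap), the 3 and 3 of lowest p (mean of at least 20 CPM), those where a prepupa library departs most from the other 2, and the 3 most open with a 95% interval within ±1. Windows are the 3 largest changes each way, and contigs the 3 highest shares among those with at least 200 tested intervals. Members and lists were chosen with earlier results of these data known. The fits were also run on simulated data in which all groups shared 1 spread per interval. Those runs cannot speak to calls where the prepupa libraries are unlike each other. Alternatives included DESeq2 1.42.0, other scalings and filters, a replicate block, window sizes and leaving out each library.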

Additional observations from a re-analysis of the deposited data

Results flagged for a closer look

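The change from prepupa to 6 d differed between the wings at 56420 matched intervals in the fit of all 24 libraries (edgeR with Benjamini-Hochberg adjustment). The intervals below are those named for their hindwing change and matched in the forewing whose difference passed the test. On 000730F at 8724 the hindwing rose and the forewing went from 8.32 to 0.592 CPM (adjusted p of the difference 2.83e-08). On 000180F at 59096 the hindwing rose and the forewing went from 6.80 CPM to 0.0431 CPM (adjusted p = 3.80e-10). On 000056F at 790716 the hindwing rose and the forewing went from 6.45 CPM to 0 (adjusted p = 0.000500), and the hindwing call there was lost without prepupa library 1 (adjusted p = 0.0564). On 000090F at 179740 the difference of the log2 changes, hindwing minus forewing, was 3.98 with a standard error of 0.35 (adjusted p = 3.16e-09).

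The 4 falling ones differed the other way. On 000134F at 562392 the difference was -7.43 with a standard error of 0.53 (adjusted p = 1.49e-10). On 000110F at 1502220 the forewing went from 0.105 to 4.21 CPM (adjusted p of the difference 2.56e-09). On 000050F at 1567678 it went from 0.0521 to 57.8 CPM (adjusted p = 5.15e-12), and on 000180F at 194855 from 0.104 to 34.0 CPM (adjusted p = 2.33e-06). The causes of these differences were not tested.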

How the results depend on the processing

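No call made with all libraries became a call in the other direction under the alternatives that kept the same intervals or windows; windows of 50 kb and 200 kb are other features and were not compared in this way. Counts of rising and falling intervals, 4809 and 17038 as reported, were 5155 and 10331 in the fit of the 6 libraries alone, 7537 and 17272 with loess offsets, 5589 and 30529 with no filter, 3722 and 9135 with at least 50 counts in 3 libraries, 18094 and 18103 with voom weights, and 428 and 5570, 3539 and 22606, and 271 and 2271 with prepupa library 1, 2 or 3 alone. Leaving out a library gave 1570 to 3421 rising and 9434 to 18774 falling intervals, and 240 to 655 rising and 342 to 677 falling windows. Windows numbered 925 rising and 1068 falling at 50 kb, 292 and 324 at 200 kb, and 275 and 344 or 226 and 216 with prepupa library 1 or 3 alone. The wing difference gave 39227 more positive and 53291 more negative intervals at 50% overlap, where more intervals were matched, and 6842 and 9331 at 95%, where fewer were. Medians of all intervals, -0.0698 as reported, were 0.0546 with library totals, -0.0128 with DESeq2 size factors, -0.0124 with its Wald test, -0.0234 with 6 libraries, -0.0350 or 0.0216 with prepupa library 1 or 2 alone, -0.0305 with loess offsets and -0.147 with no filter. Medians of all windows, -0.0364 as reported, were -0.00439 with DESeq2 size factors, -0.00462 with its Wald test, 0.000956 and -0.0182 with prepupa library 1 or 3 alone, 0.00404 at 200 kb and -0.0486 to -0.0157 without each library. Apart from changes in the features or libraries fitted, causes were not tested. With libraries thinned to 1 total, added after seeing the data, 3751 rose and 15365 fell. The replicate block gave 3978 rising and 15546 falling intervals, 426 and 559 windows, and 25854 and 31244 for the wing difference, though the numbers do not pair the samples: same-numbered libraries deviated at correlations of 0.037, -0.035 and -0.064, and other pairs at -0.039 to 0.068.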
